A study of Mus musculus with 9 samples.

Results

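To study how loss of the HIF partner ARNT in myeloid cells bears on genes of cell fusion and of the osteoclast program, the expression of 10 genes was examined in macrophages sorted from the colonic lamina propria of mice with acute colitis. The genes were Dcstamp, Ocstamp, Atp6v0d2, Ctsk, Acp5, Nfatc1, Tnfrsf11a, Oscar, Trem2 and Itgb3, out of 22180 genes that had a probe set with 1 gene symbol on the array. Each of the 10 was represented by 1 such probe set. The set was chosen by the level of Dcstamp, which had been seen to be lower in LysMCre;Arntfl/fl than in LysMCre macrophages, so for Dcstamp this difference is a description and no test is given. The other 9 genes were added for their known roles and were tested.

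RNA was measured on 9 Affymetrix Mouse Gene 2.0 arrays, 1 per mouse, from 5 LysMCre and 4 LysMCre;Arntfl/fl mice. All mice were female, had a C57BL/6 background in the labels, carried the LysMCre transgene and drank 3% dextran sodium sulfate (DSS) for 5 days and plain water for 3 days. Cells positive for CD45, CD11b and F4/80 were taken on Day 8. LysMCre mice had intact Arnt alleles, whereas both Arnt alleles of LysMCre;Arntfl/fl mice were floxed and open to Cre. LysM-driven Cre acts in neutrophils as well as macrophages and cuts more completely as monocytes mature, so deletion need not have been complete. The Arntfl/fl strain began on a background mixed from C57BL/6 and another strain and was backcrossed to C57BL/6. No mice without DSS were among these arrays.

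Osteoclasts are giant cells that form when precursors of the macrophage lineage fuse. The cytokine RANKL acts through its receptor RANK (Tnfrsf11a), costimulatory receptors such as OSCAR and TREM2 signal through adaptors with ITAM motifs, and both inputs converge on the transcription factor NFATc1, which switches on fusion genes (Dcstamp, Ocstamp, Atp6v0d2), the integrin chain Itgb3 and the resorptive enzymes Ctsk and Acp5. Many of the same genes are expressed by tissue macrophages that never become osteoclasts, and ARNT is the partner that HIF-1α and HIF-2α need to bind DNA.

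Dcstamp, for whose lower level the set was chosen, was lower in all 4 LysMCre;Arntfl/fl arrays than in all 5 LysMCre arrays. The difference was 1.23 on the log2 scale and, given that choice, is a description and no test. Of the other 9 genes, 6 had a log2 fold change above 0 and 3 one below 0, where 48.0% of all genes lay below, 5 lay within 0.10 of 0, and the median was 0.03, beside 0.01 over all genes. None of the 9 passed limma at an adjusted p below 0.05 with a fold change above 1.5, where 0.151% of all probe sets were called lower and 0.143% higher. None was called under the alternative settings either, of which 28 were run for each gene, or 27 for Atp6v0d2 and Oscar, which a filter on brighter probe sets left out. At an unadjusted p below 0.05, Ocstamp and Nfatc1 were lower and Atp6v0d2 was higher, that is 2 and 1 of 9, where 5.79% of all probe sets lay below and 5.72% above. Levels below are log2 values, in which a step of 1 is a 2-fold change, and every difference is LysMCre;Arntfl/fl minus LysMCre. In sorted bulk cells, fewer cells that express a gene and less RNA per cell cannot be told apart.

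**Figure D1:**
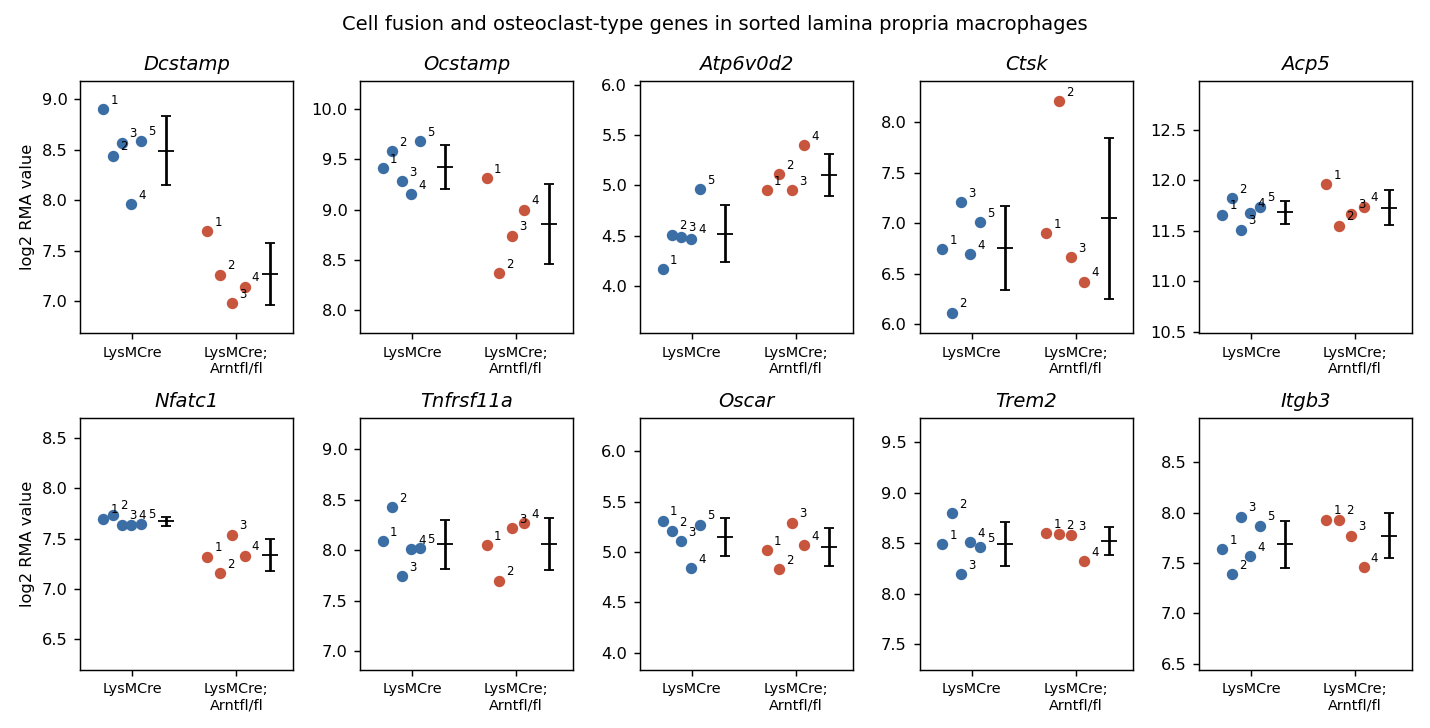
Log2 level of each of the 10 genes on every array, with replicate numbers beside the points and the mean ± SD of each genotype (5 LysMCre, 4 LysMCre;Arntfl/fl) to the right; all panels span the same range of log2 units. The LysMCre;Arntfl/fl points lie wholly below the LysMCre points for Dcstamp (6.98 to 7.69 against 7.96 to 8.90) and Nfatc1 (7.16 to 7.54 against 7.64 to 7.74) and overlap them for the other genes.

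The targeted gene followed the labels. Arnt was at 9.54, 9.44, 9.36, 9.31 and 9.31 in LysMCre replicates 1 to 5 and at 8.77, 8.60, 8.84 and 8.70 in LysMCre;Arntfl/fl replicates 1 to 4 (log2 fold change -0.66 with a standard error, SE, of 0.09, limma adjusted p = 0.0214). It was lower in all 28 alternatives but no longer called in 9 of them, among them the fits without LysMCre replicate 3 or 5 or LysMCre;Arntfl/fl replicate 2, 3 or 4 (limma adjusted p up to 0.0883) and the replicate block (limma adjusted p = 0.138). The sorted cells carried macrophage genes in both genotypes. All 10 identity markers, among them Adgre1, Itgam and Ptprc, lay above the median probe set. Their mean was 10.72 to 11.08 in LysMCre and 10.81 to 10.95 in LysMCre;Arntfl/fl arrays. All measured markers of epithelium (17), fibroblasts (8), dendritic cells (8), T cells (5) and B and plasma cells (5) lay above the median probe set too. This limit therefore does not tell macrophages from other cells. Neutrophil markers differed between the genotypes. Of 19, 18 had a positive log2 fold change, 16 lay above the median probe set, and their mean was 7.85 to 9.04 in LysMCre and 9.11 to 9.79 in LysMCre;Arntfl/fl arrays, with no overlap. The mean of the monocyte markers was higher by 0.63, that of endothelial markers by 0.57 and that of epithelial markers by 0.21, while it was lower by 0.31 for mature colonic macrophage markers and by 0.46 for fibroblast markers. The lists for eosinophils, dendritic cells, platelets, T cells and B cells differed by -0.09, -0.08, 0.01, 0.02 and -0.13.

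Dcstamp, on chromosome 15 (chr15:39745930-39760938 in GRCm38.p6), encodes the dendritic cell-specific transmembrane protein, a multipass membrane protein without which osteoclast precursors and macrophages of mice do not fuse. It was at 8.90, 8.44, 8.57, 7.96 and 8.59 in LysMCre replicates 1 to 5 and at 7.69, 7.26, 6.98 and 7.14 in LysMCre;Arntfl/fl replicates 1 to 4. The 2 genotypes did not overlap, and the gap of 0.27 between the nearest arrays, LysMCre replicate 4 and LysMCre;Arntfl/fl replicate 1, was smaller than the range within either genotype (0.94 and 0.71). The means were 8.49 ± 0.34 (SD, n = 5) and 7.27 ± 0.30 (SD, n = 4), a 2.34-fold lower level (log2 fold change -1.23, SE 0.19). Of all 22180 genes, 29 had a more negative log2 fold change. Leaving out each array in turn gave -1.37 to -1.12. As Dcstamp was chosen for being lower, these values describe it and are no test.

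In each genotype the array with the lowest Dcstamp level had the highest neutrophil mean, while the other arrays did not follow one order. LysMCre replicate 4 had both the lowest Dcstamp level (7.96) and the highest neutrophil mean (9.04) of its genotype, and in LysMCre;Arntfl/fl replicate 3 had the lowest Dcstamp level (6.98) and the highest neutrophil mean (9.79). The same arrays also had the highest monocyte mean (9.75 and 10.15) and the highest eosinophil mean (6.05 and 5.81) of their genotypes. Over the 9 arrays, deviations from the genotype means correlated between Dcstamp and the neutrophil mean at -0.67. With the endothelial, eosinophil and monocyte means the values were -0.65, -0.63 and -0.24. The part of such cells in the Dcstamp level was not tested. LysMCre replicate 2, with the lowest neutrophil mean of its genotype (7.85), had the second lowest Dcstamp level (8.44), and LysMCre;Arntfl/fl replicate 2, likewise lowest in neutrophil markers (9.11), lay below replicate 1 in Dcstamp (7.26 against 7.69). In a fit with the neutrophil mean as a covariate, Dcstamp had a log2 fold change of -0.65 (SE 0.27). As the neutrophil means of the genotypes did not overlap, the covariate and the genotype are largely the same contrast here. With the monocyte, fibroblast, epithelial and dendritic cell means as covariates the value was -1.09, -1.15, -1.19 and -1.26. A share of neutrophils among the sorted cells was not measured.

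**Figure D2:**
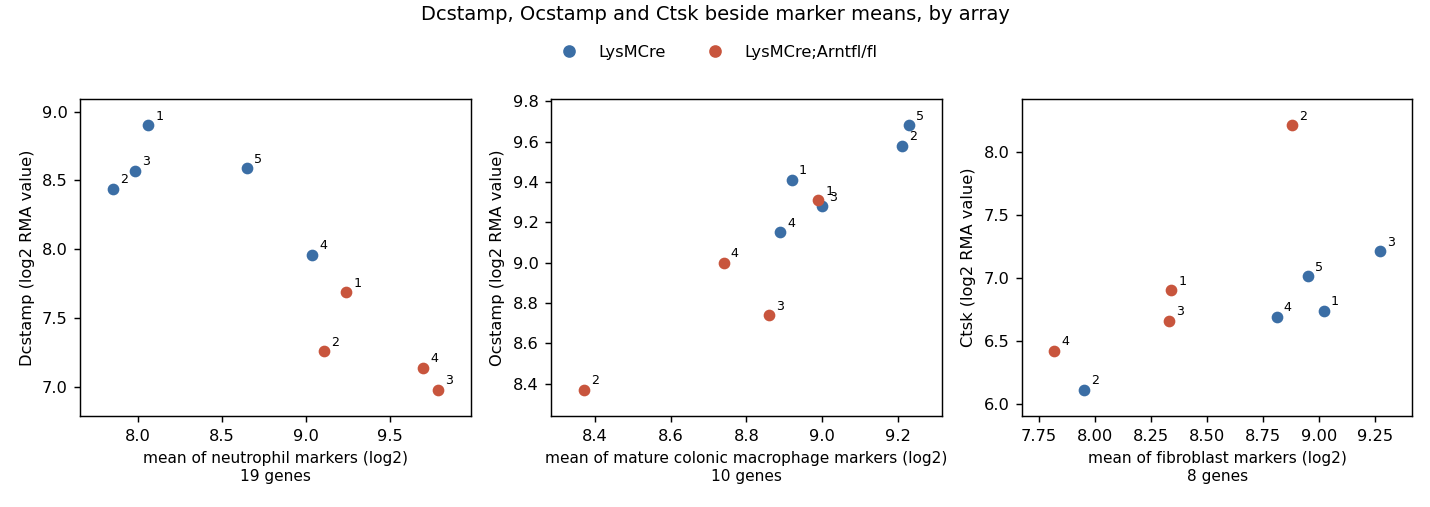
Levels of Dcstamp, Ocstamp and Ctsk (log2, vertical axes) against the mean log2 level of a marker list on the same array (horizontal axes): 19 neutrophil, 10 mature colonic macrophage and 8 fibroblast genes; numbers are replicates. LysMCre;Arntfl/fl replicate 2 has the lowest Ocstamp level (8.37) beside the lowest mature macrophage mean (8.37), and the highest Ctsk level (8.21) beside a fibroblast mean of 8.88.

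Ocstamp, the related osteoclast stimulatory transmembrane protein, which acts beside Dcstamp in fusion, had a lower mean but did not pass the test. Its levels were 9.41, 9.58, 9.28, 9.15 and 9.68 in LysMCre and 9.31, 8.37, 8.74 and 9.0 in LysMCre;Arntfl/fl macrophages. LysMCre;Arntfl/fl replicate 1 lay inside the LysMCre range and the other 3 below it. The log2 fold change was -0.56 (SE 0.18, 95% interval -0.96 to -0.17, limma adjusted p = 0.228), and -0.40 without LysMCre;Arntfl/fl replicate 2. Ocstamp was lowest on the array with the lowest mean of mature colonic macrophage markers (LysMCre;Arntfl/fl replicate 2, both at 8.37) and highest on the array with the highest (LysMCre replicate 5, 9.68 beside 9.23). The part of mature macrophage markers in the result was not tested. Over the alternatives, the log2 fold change ran from -0.72 to -0.35, the latter with the monocyte mean as a covariate.

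Atp6v0d2 ran the other way. It encodes the d2 subunit of the membrane sector of the vacuolar proton pump, which in mice is needed for efficient fusion of osteoclast precursors. Its levels were 4.17, 4.51, 4.49, 4.47 and 4.96 in LysMCre and 4.95, 5.11, 4.95 and 5.40 in LysMCre;Arntfl/fl macrophages. LysMCre replicate 5 alone reached the LysMCre;Arntfl/fl range. The log2 fold change was 0.58 (SE 0.15, 95% interval 0.24 to 0.92, limma adjusted p = 0.142), and 0.36 (SE 0.27) with the neutrophil mean as a covariate. All 9 values lay below 6.02, the median of all probe sets, where a log2 difference is less certain. Its partner gene Atp6v0d1, which encodes the d1 subunit found in most cells, had a log2 fold change of 0.07 (SE 0.09, limma adjusted p = 0.865). Of the 3 fusion genes, Dcstamp and Ocstamp were thus on one side of 0 and Atp6v0d2 on the other.

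**Figure D3:**
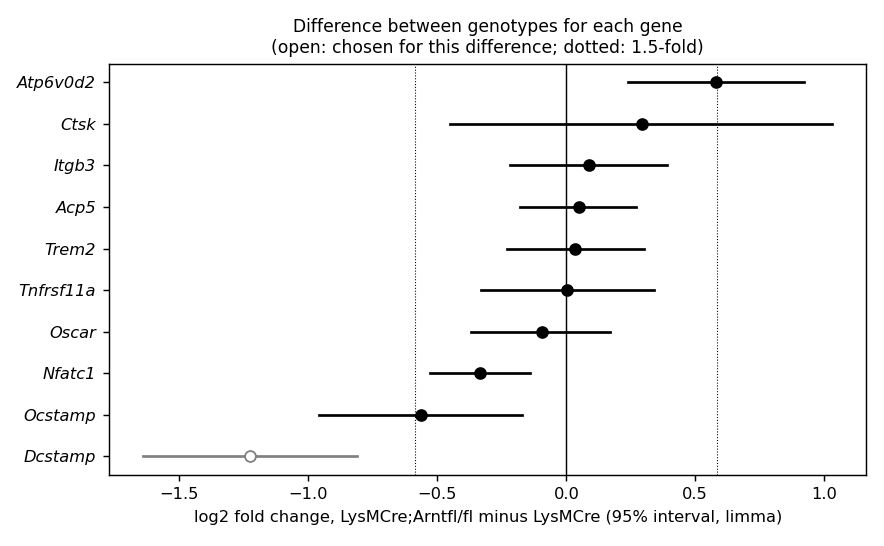
Log2 fold change of each gene (horizontal axis, LysMCre;Arntfl/fl minus LysMCre) with its 95% interval from limma; dotted lines mark a 1.5-fold change. Dcstamp (open, -1.23) was the reason the set was drawn up, so its interval is drawn as a description and is no test. Of the others, the intervals of Ocstamp, Nfatc1 and Atp6v0d2 leave out 0 before any adjustment and the remaining 6 hold it.

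Nfatc1, the transcription factor that acts as the main switch of the osteoclast program and drives Dcstamp in osteoclast precursors, was a little lower. It was at 7.70, 7.74, 7.64, 7.64 and 7.65 in LysMCre and at 7.32, 7.16, 7.54 and 7.33 in LysMCre;Arntfl/fl macrophages. The genotypes did not overlap, which held for 1 of the 9 tested genes in this direction and 0 in the other, and for 2.22% and 2.52% of all probe sets. LysMCre arrays spanned only 0.10, whereas LysMCre;Arntfl/fl arrays spanned 0.38. The log2 fold change was -0.33 (SE 0.09, 95% interval -0.53 to -0.14), below the 1.5-fold limit, and the adjusted p was 0.143 from limma. It stayed between -0.40 and -0.28 under all alternatives run, and was -0.39 (SE 0.16) with the neutrophil mean as a covariate. Within LysMCre;Arntfl/fl the order of the arrays by Nfatc1 was not that by Dcstamp, since replicate 3 had the highest Nfatc1 level (7.54) and the lowest Dcstamp level (6.98).

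The receptors did not differ detectably. Tnfrsf11a, which encodes RANK, was at 8.09, 8.43, 7.74, 8.01 and 8.02 in LysMCre and at 8.05, 7.70, 8.22 and 8.27 in LysMCre;Arntfl/fl macrophages. Both genotypes spread over the same range, and the log2 fold change was 0.00 (SE 0.15, 95% interval -0.33 to 0.34, limma adjusted p = 0.996). The interval leaves out a 1.5-fold change (0.585 in log2 units) in either direction. Oscar, the osteoclast-associated immunoglobulin-like receptor that binds collagen, was at 5.31, 5.21, 5.11, 4.84 and 5.27 in LysMCre and at 5.02, 4.83, 5.29 and 5.07 in LysMCre;Arntfl/fl cells (log2 fold change -0.10, 95% interval -0.37 to 0.17, limma adjusted p = 0.844). All its values lay below the median of all probe sets. Trem2, the lipid-sensing receptor that signals through DAP12, was at 8.49, 8.80, 8.19, 8.51 and 8.46 in LysMCre and at 8.60, 8.59, 8.58 and 8.32 in LysMCre;Arntfl/fl cells (log2 fold change 0.03, 95% interval -0.23 to 0.30, limma adjusted p = 0.953). Of the LysMCre;Arntfl/fl arrays, 3 were nearly equal in Trem2 and replicate 4 lay below them.

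The adhesion and resorption genes overlapped between the genotypes as well. Acp5, the tartrate-resistant acid phosphatase by which osteoclasts are stained, was at 11.66, 11.82, 11.51, 11.68 and 11.74 in LysMCre and at 11.96, 11.55, 11.67 and 11.74 in LysMCre;Arntfl/fl cells (log2 fold change 0.05, SE 0.10, 95% interval -0.18 to 0.27, limma adjusted p = 0.916). Itgb3, the integrin β3 chain that pairs with αv and anchors osteoclasts to bone, was at 7.64, 7.39, 7.96, 7.57 and 7.87 in LysMCre and at 7.93, 7.93, 7.77 and 7.46 in LysMCre;Arntfl/fl cells (log2 fold change 0.09, 95% interval -0.22 to 0.39, limma adjusted p = 0.880). Itgb3 is also an integrin of platelets, whose markers had a mean of 6.90 to 7.11 in LysMCre and 6.90 to 7.10 in LysMCre;Arntfl/fl arrays. Over the 9 arrays, deviations from the genotype means correlated between Itgb3 and the platelet mean at 0.91. With the B and plasma cell mean the value was 0.87, and with the fibroblast mean 0.85. The part of such cells in the Itgb3 level was not tested. For Acp5 and Itgb3 the intervals leave out a 1.5-fold change in either direction.

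Ctsk, which encodes the collagen-degrading cysteine protease cathepsin K, had the widest spread of the set. It was at 6.74, 6.11, 7.21, 6.69 and 7.01 in LysMCre and at 6.90, 8.21, 6.66 and 6.42 in LysMCre;Arntfl/fl macrophages. A lone array, LysMCre;Arntfl/fl replicate 2, lay 1.31 above the next of its genotype, and the other 3 lay inside the LysMCre range. The log2 fold change was 0.29 (SE 0.34, 95% interval -0.45 to 1.03, limma adjusted p = 0.819), and it turned to -0.09 without that array. Ctsk is also a gene of fibroblasts, whose markers had a mean of 9.02, 7.95, 9.27, 8.81 and 8.95 in LysMCre replicates 1 to 5 and of 8.34, 8.88, 8.33 and 7.82 in LysMCre;Arntfl/fl replicates 1 to 4. In LysMCre the lowest Ctsk level and the lowest fibroblast mean both belonged to replicate 2 and the highest of each to replicate 3. In LysMCre;Arntfl/fl the 4 arrays had the same order in both, replicate 4 being lowest and replicate 2 highest. In a fit with the fibroblast mean as a covariate, Ctsk had a log2 fold change of 0.80 (SE 0.21, limma adjusted p = 0.167).

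Some genes of the set shared an order across the mice. By level, the arrays of each genotype fell in the same order for Itgb3 as for Ctsk, and this order was noticed after the values were seen. LysMCre replicate 2 was the highest of its genotype for Acp5, Nfatc1, Tnfrsf11a and Trem2 and the lowest for Ctsk and Itgb3, and LysMCre replicate 3 was the lowest for Acp5, Tnfrsf11a and Trem2, shared the lowest Nfatc1 level (7.64) with replicate 4, and was the highest for Ctsk and Itgb3. LysMCre;Arntfl/fl replicate 2 had the lowest Ocstamp, Acp5, Nfatc1, Tnfrsf11a and Oscar levels of its genotype, the highest Ctsk level and, with replicate 1, the highest Itgb3 level. For Tnfrsf11a the order in LysMCre;Arntfl/fl was the reverse of that by fibroblast mean, and its log2 fold change with that mean as a covariate was -0.22 (SE 0.10, limma adjusted p = 0.464). Itgb3 had 0.27 (SE 0.11, limma adjusted p = 0.380) in the same fit. Dcstamp did not follow this pattern, as its order matched that of Ctsk in neither genotype.

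Ctsk is also the measured gene nearest to Arnt. Arnt lies at chr3:95434367-95497240 and Ctsk at chr3:95499210-95509387 in GRCm38.p6, on the same strand, with 1970 bases between the end of Arnt and the start of Ctsk. DNA of the strain in which the floxed allele was made can stay with the allele, so a difference at Ctsk from the deletion, from such linked DNA and from the spread among mice cannot be told apart in these arrays. Of 43 measured genes within 500 kb of Arnt, 0 were called by limma or by the SAM-type score, against 0.294% of all probe sets in either direction by limma. At an unadjusted p below 0.05, 5 were lower and 1 higher, where 5.79% and 5.72% of all probe sets were. In all, 22 lay below 0 and 21 above, with a median of -0.01. Ctss, the gene of the protease cathepsin S on the far side of Ctsk, 29.5 kb from Arnt, had -0.23 (SE 0.09, limma adjusted p = 0.323). Prune1 had -0.47 (adjusted p = 0.177), Golph3l -0.33 (adjusted p = 0.178), Setdb1 -0.24 (adjusted p = 0.408) and Zfp687 0.36 (adjusted p = 0.101), all from limma, and Golph3l (lower) and Zfp687 (higher) did not overlap between the genotypes, as held for 2.22% and 2.52% of all probe sets.

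**Figure D4:**
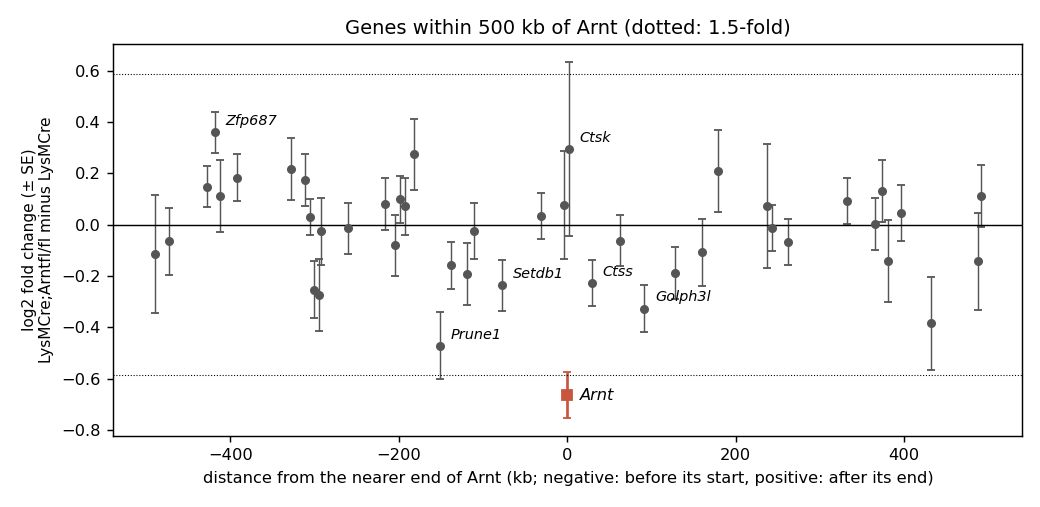
Log2 fold change ± SE (vertical axis, LysMCre;Arntfl/fl minus LysMCre) of the 43 measured genes within 500 kb of Arnt by their distance from its nearer end (horizontal axis, kb), with Arnt as a red square and dotted lines at 1.5-fold. Arnt (-0.66) is the only one past a dotted line, and Ctsk (0.29), the nearest gene after Arnt, has the widest error bar.

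As ARNT dimers bind DNA, the start regions of the set were read on both strands for short sequences. ACGTG and GCGTG are core letters of the hypoxia and dioxin response elements. The hypoxia core can begin with A or G, so GCGTG can belong to either element. The others were the NFAT core (GGAAA) and TGANTCA, a looser form of the AP-1 site TGA(C/G)TCA. RefSeq windows from 250 bases before to 50 after the start (GRCm38.p6) were at hand for 5 of the 10 genes, Ctsk, Tnfrsf11a, Oscar, Trem2 and Acp5, with 7 windows in all. ACGTG is in none of the 7, while 19.6% of all 32851 windows of this length hold it. GCGTG is in those of Tnfrsf11a and Trem2 (32.4% of all windows), and GGAAA is in those of Ctsk, Oscar, Trem2 and Acp5 (61.3%). TGANTCA is in that of Trem2 (7.81%), where it reads TGAATCA and so is not the strict AP-1 site. Shown are Ctsk, as the nearest neighbour of Arnt, and the pair with a GCGTG. Capitals mark each match in the reading direction of the gene, so that CACGC stands for GCGTG and TTTCC for GGAAA when these lie on the other strand, and no marked match overlaps another.
Ctsk, chr3:95498960-95499259 (+): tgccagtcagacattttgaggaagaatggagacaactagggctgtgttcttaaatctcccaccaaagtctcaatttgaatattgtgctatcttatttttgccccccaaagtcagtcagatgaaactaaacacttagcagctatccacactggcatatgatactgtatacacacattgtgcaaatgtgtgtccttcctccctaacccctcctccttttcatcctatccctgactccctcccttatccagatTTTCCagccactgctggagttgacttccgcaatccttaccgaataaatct
Tnfrsf11a, chr1:105780473-105780772 (+): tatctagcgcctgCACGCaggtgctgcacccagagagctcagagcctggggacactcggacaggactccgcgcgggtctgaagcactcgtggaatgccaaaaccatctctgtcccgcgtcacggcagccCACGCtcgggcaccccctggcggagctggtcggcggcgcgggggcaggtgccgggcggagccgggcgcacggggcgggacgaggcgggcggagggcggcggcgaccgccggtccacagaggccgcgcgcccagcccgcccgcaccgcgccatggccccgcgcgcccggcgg
Trem2, chr17:48346151-48346450 (+): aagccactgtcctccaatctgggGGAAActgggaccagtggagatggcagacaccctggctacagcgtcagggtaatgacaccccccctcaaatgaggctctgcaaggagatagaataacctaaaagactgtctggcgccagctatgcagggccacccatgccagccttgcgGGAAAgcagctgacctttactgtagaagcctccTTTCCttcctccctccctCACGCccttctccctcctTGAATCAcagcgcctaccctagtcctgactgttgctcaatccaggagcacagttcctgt
A match of such short letters describes the sequence and is not a site. Neither Tnfrsf11a (log2 fold change 0.00) nor Trem2 (0.03) passed the test, as given above.

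The wider pathway was read from 7 lists of 88 genes, of which 83 had a probe set with 1 symbol. Of these, 0 were called lower and 1, Plekhm1, higher, beside 0.151% and 0.143% of all probe sets. The SAM-type score, the kind of test named in the methods, called 0 lower and 3 higher, Plekhm1, Mmp9 and Adam8, beside 0.501% and 0.410% of all probe sets. At an unadjusted p below 0.05, 9 (10.8%) were lower and 14 (16.9%) higher, where 5.79% and 5.72% of all probe sets were. The 83 are the brightest probe sets of genes with 1 symbol, while all probe sets include 9024 without a symbol. These shares, like the others given over all probe sets, thus do not compare like probe sets. The median over the 83 genes was 0.05.

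In the list of RANKL, M-CSF and their signalling, 0 of 11 genes were called, 3 lay below 0 and 8 above, and the median was 0.11. The ligand gene Tnfsf11 (RANKL) had 0.05 (SE 0.12), its decoy receptor Tnfrsf11b -0.25 (0.17), the growth factor gene Csf1 -0.11 (0.14) and Il34, the other ligand of the same receptor, 0.00 (0.18). The highest was the NF-κB subunit gene Nfkb2 at 0.30 (SE 0.10, limma adjusted p = 0.243). Tnfsf11 and Tnfrsf11b are made mainly by stromal and lymphoid cells.

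In the list of ITAM adaptors and kinases, 0 of 10 genes were called, 5 lay below 0 and 5 above, and the median was 0.02. The adaptor genes Tyrobp (DAP12) and Fcer1g, on which Trem2 and Oscar depend, had 0.13 (SE 0.08) and 0.06 (0.09), and the kinase genes Syk and Btk 0.17 (0.11) and -0.15 (0.13). At the ends were the kinase gene Tec at -0.42 (adjusted p = 0.141) and Clec5a, a DAP12-coupled lectin receptor of monocytes and neutrophils, at 0.75 (adjusted p = 0.191), both from limma.

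The transcription factor lists were mixed. Of 10 activators, 0 were called, 6 lay below 0 and 4 above, and the median was -0.12. The AP-1 genes Fos, Fosl2 and Jun had -0.35 (SE 0.17), -0.26 (0.13) and -0.20 (0.10), Prdm1, which represses inhibitors of the program, -0.38 (0.14), and Tfe3, a partner of MITF, 0.49 (0.11, limma adjusted p = 0.0956) with no overlap between the genotypes. Of 4 inhibitors, 0 were called. Irf8, which restrains NFATc1, had -0.55 (0.12, limma adjusted p = 0.0872) and Bcl6, a repressor of Nfatc1, Dcstamp and Ctsk in osteoclast precursors of mice, 0.28 (0.09, limma adjusted p = 0.254), each without overlap, and Cyld had -0.04 (0.09).

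Genes of acid secretion and matrix resorption held the one call. Of 16, 14 had a positive log2 fold change and 2 a negative one, where 48.0% of all genes lay below 0. The median was 0.19. At an unadjusted limma p below 0.05, 6 were higher and 1 lower, where 5.72% and 5.79% of all probe sets were. Plekhm1, an adaptor of lysosome trafficking that osteoclasts need to resorb bone, rose from 8.96 ± 0.12 (SD, n = 5) to 9.59 ± 0.20 (SD, n = 4), with a log2 fold change of 0.63 (SE 0.11, limma adjusted p = 0.0444). Leaving out any of the 9 arrays lost the call, with log2 fold changes of 0.53 to 0.68 and adjusted p of 0.0586 to 0.129 from limma. The call was lost in 16 of the 28 alternatives in all. Among them were the fits with the neutrophil (0.68, limma adjusted p = 0.441), monocyte (0.63, limma adjusted p = 0.496), fibroblast (0.65, limma adjusted p = 0.0801) and dendritic cell (0.58, limma adjusted p = 0.0668) means as covariates. The neutrophil and monocyte fits called 0 of all probe sets higher, so the loss there is not particular to Plekhm1. Its call was also lost with median centring (limma adjusted p = 0.0549) and the replicate block (limma adjusted p = 0.137). Mmp9 (gelatinase B), an enzyme of osteoclasts that neutrophils store too, had 1.36 (SE 0.25, limma adjusted p = 0.0550), and 0.29 in the fit with the neutrophil mean. That fit hardly separates the neutrophil mean from the genotype, as the neutrophil means of the genotypes did not overlap. Mmp9 was called in 8 of the 28 alternatives, among them the fit without LysMCre replicate 4 (1.54, limma adjusted p = 0.0198). The proton pump genes Tcirg1, Atp6v0d1 and Atp6v0a1 had 0.22 (0.12), 0.07 (0.09) and -0.49 (0.11, limma adjusted p = 0.0844).

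Cell surface and cytoskeletal genes of macrophage fusion gave 0 calls among 18, with 8 log2 fold changes below 0 and 10 above and a median of 0.03. The tetraspanin genes Cd9 and Cd81, whose proteins hold back fusion of macrophages in mice, had 0.10 (SE 0.13) and -0.71 (0.18, limma adjusted p = 0.122). Cd81 did not overlap between the genotypes. Cd47 and its receptor gene Sirpa had -0.10 (0.09) and 0.04 (0.10). The highest was Adam8, a metalloprotease of fusing precursors that neutrophils also carry, at 0.85 (0.19, limma adjusted p = 0.0927). It was called without LysMCre replicate 4 (limma adjusted p = 0.0393). With the neutrophil mean as a covariate, which here is largely the same contrast as the genotype, it had 0.22 (SE 0.26).

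Genes known to rise with Trem2 in lipid-laden macrophages likewise gave 0 calls among 14, with 8 log2 fold changes below 0 and 6 above and a median of -0.04. Apoe had -0.06 (SE 0.10), Gpnmb -0.35 (0.18), Lpl -0.35 (0.18), the integrin gene Itgax -0.72 (0.23, limma adjusted p = 0.234) and the lipid droplet gene Plin2 0.56 (0.10, limma adjusted p = 0.0550). Plin2 did not overlap between the genotypes and Itgax did. Plin2 passed both limits with further quantile normalization (0.59, limma adjusted p = 0.0390) and with the epithelial mean as a covariate (0.59, limma adjusted p = 0.0345).

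**Figure D5:**
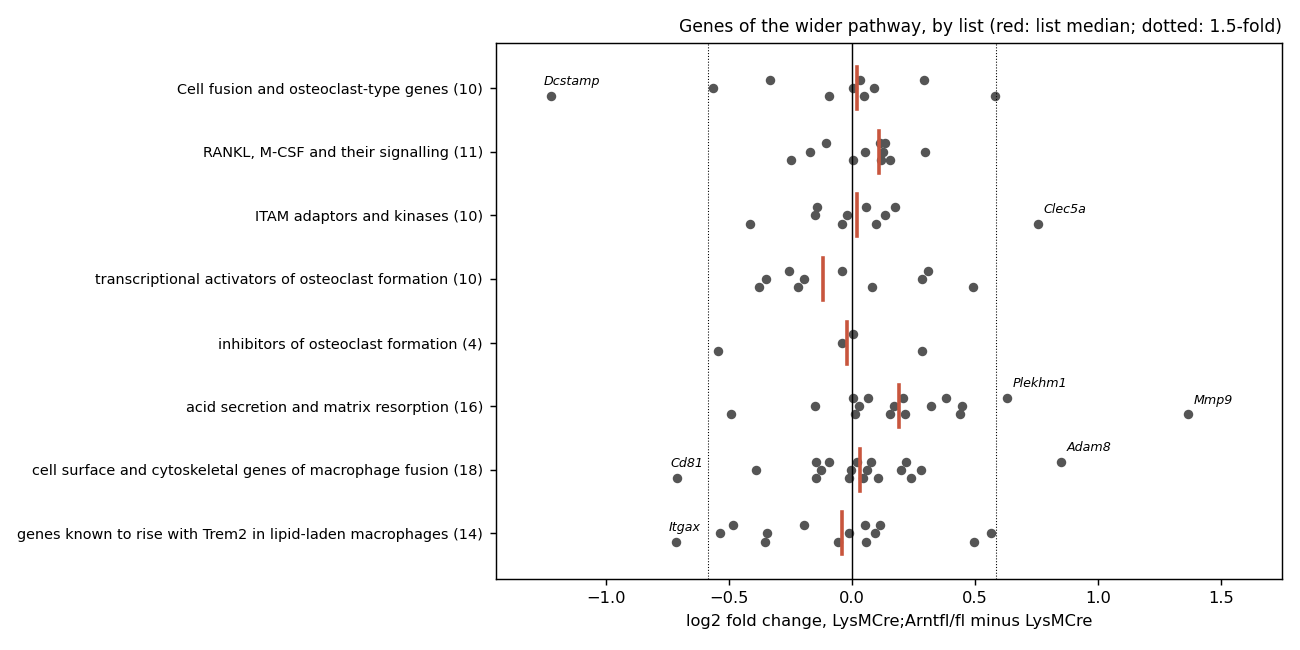
Log2 fold change (horizontal axis, LysMCre;Arntfl/fl minus LysMCre) of each measured gene of the set and of the 7 pathway lists, with the number of genes in brackets, the list median as a red bar and dotted lines at 1.5-fold; vertical scatter within a row has no meaning. Medians lie between -0.12 and 0.19, and Dcstamp (-1.23) and Mmp9 (1.36) are the outermost points.

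The genes most like Dcstamp were sought by the correlation of deviations from the genotype means over the 9 arrays, among 12038 genes above the median probe set. Those with the highest values were Cul4b (0.96), Tsc1 (0.95), Tmx4 (0.94), Gsg1 (0.93), Ppfibp1 (0.92) and Prdm2 (0.91), given as a description of 9 points from this many genes. Their log2 fold changes ran from -0.24 to 0.20. By ranks, 2 of these 6 were again among the first 6. Of the set itself, Ocstamp had 0.51, with 1375 of the 12038 genes higher, and Nfatc1 had -0.16. The other 7 ran from -0.24 (Atp6v0d2) to 0.39 (Itgb3).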

How the data were processed

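The deposited values are the authors' log2 values from RMA in Expression Console with default settings, background-corrected, quantile-normalized and summarised per probe set. The methods name Partek Genomics Suite 6.1 and the submitters' processing notes 6.6. Neither a filter nor the annotation release is stated in the sources used here. The table held 34365 probe sets on 9 arrays with medians of 5.98 to 6.04. Of these, 23521 carried 1 gene symbol in the platform annotation, and the brightest stood for a gene.

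The genotypes were compared using limma 3.58.1 in R 4.3.3 (lmFit, eBayes), and all 34365 probe sets entered the Benjamini-Hochberg adjustment. A call needed both an adjusted p below 0.05 and a change of over 1.5-fold, the limits that the methods used with SAM. The script was tested on simulated data. Intervals are moderated and unadjusted. The arrays were few, and the sample records give 1.5 ng of RNA for each. What limits the precision was not tested, and nothing beyond the labels says how the mice were drawn. The members and gene lists were chosen with earlier results of these data known. Named are all members, Arnt and its neighbours, of each list the first 4 genes, any called gene and the ends, the 6 genes most like Dcstamp, and up to 3 of each marker list; neighbours of Arnt beyond Ctsk and Ctss were picked after their values were seen. Levels of different probe sets are not compared. Alternatives were other variance models, array weights, a d score of the SAM type with 100 permutations, the methods' t-test, other thresholds, filters and scalings, the replicate block, 5 marker means as covariates and leaving out each array. Replicate numbers were not a pairing. No column was left out.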

Additional observations from a re-analysis of the deposited data

Results flagged for a closer look

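Of 46 groups of 4 or 5 arrays checked for a lone extreme array (the 10 genes, Arnt and 12 marker means in each genotype), 2 had a gap larger than Dixon's limit, and chance alone gives about 1 in 20. In Trem2, LysMCre;Arntfl/fl replicate 4 (8.32) lay below the other 3 arrays of its genotype, which were at 8.58 to 8.60, with a gap of 0.925 of the whole range (limit 0.829). In the mean of the dendritic cell markers, LysMCre;Arntfl/fl replicate 2 (7.14) lay below the other 3, which were at 7.49 to 7.54 (0.876 of the range). The log2 fold change of Trem2 was 0.11 at most over the fits without 1 array. The gap of Ctsk in LysMCre;Arntfl/fl replicate 2 did not pass that limit.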

How the results depend on the processing

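None of the 9 tested genes was called in the alternatives run (28, or 27 for Atp6v0d2 and Oscar). Dcstamp, chosen for its lower level, kept its direction in all 28, from -1.37 to -0.65, the last with the neutrophil mean as a covariate (-0.654). Median log2 fold changes of the set were near 0 throughout: without 1 array they ran from -0.059 to 0.049 over 10 genes and from -0.040 to 0.083 over 9, and with the fibroblast mean as a covariate they were -0.091 and -0.044. Arnt kept its direction but was no longer called with the methods' t-test after adjustment (-0.66, adjusted p = 0.107), with the replicate block (-0.68, adjusted p = 0.138 from limma), with the neutrophil mean (-0.61, adjusted p = 0.357 from limma) and with the monocyte mean (-0.67, adjusted p = 0.401 from limma) as covariates, and without LysMCre replicate 3 or 5 or LysMCre;Arntfl/fl replicate 2, 3 or 4, where the adjusted p from limma reached 0.0883. Among genes of the lists not called at first, Mmp9 was called in 8 alternatives, Adam8 in 4, Plin2 with further quantile normalization (0.59) and with the epithelial mean (0.59), and Cd81, Clec5a and Itgax were called only with the methods' t-test before adjustment. Plekhm1, the list gene called at first, lost its call in 16 of the 28 alternatives. Over the fits without 1 array Arnt ran from -0.70 to -0.62.

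The number of called probe sets, 49 higher and 52 lower, moved with the setting. It was 87 and 80 with array weights, 141 and 172 with the SAM-type score, 252 and 359 with the methods' t-test before and 1 and 3 after adjustment, 135 and 168 at an adjusted p below 0.10, 98 and 106 among brighter probe sets, 3 and 2 with the replicate block (the numbers share no more than a name: the correlations of deviations were -0.120, -0.0715, -0.000463 and 0.166), 0 and 0 with the neutrophil mean, 13 and 24 with the fibroblast mean, 0 and 1 with the monocyte mean, and 30 lower with the dendritic cell mean. Without 1 array it was 0 to 74 higher and 1 to 75 lower. By ranks, 2 of the 6 genes most like Dcstamp were shared.

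Some values changed sign. With the fibroblast mean these were Acp5 (-0.040), Csf1 (0.038), Sirpa (-0.013), Tnfrsf11a (-0.22) and Trem2 (-0.044). With the neutrophil mean they were Apoe (0.034), Cd9 (-0.22), Tnfrsf11a (-0.092), Tnfrsf11b (0.22, from -0.25) and Tyrobp (-0.046), and with the monocyte mean Apoe (0.020), Cd9 (-0.14), Fcer1g (-0.011) and Il34 (-0.16). With the dendritic cell mean they were Cyld (0.0053), Il34 (-0.013) and Trem2 (-0.0098), with the epithelial mean Il34 (-0.024), with array weights Il34 (-0.078), with median centring Il34 (-0.0033) and Tnfrsf11a (-0.0041), and with the replicate block Cyld (0.0050) and Tnfrsf11a (-0.0055). The cause was not tested. Without 1 array the ranges that crossed 0 were -0.029 to 0.11 for Acp5, -0.093 to 0.50 for Ctsk (0.29 with all arrays), -0.077 to 0.12 for Tnfrsf11a and -0.040 to 0.11 for Trem2, and for genes of the lists -0.12 to 0.0086 for Apoe, -0.072 to 0.022 for Cyld, -0.12 to 0.13 for Il34, -0.013 to 0.091 for Sirpa and -0.064 to 0.12 for Tnfsf11.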
